A study of Homo sapiens with 24 samples.

Results

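FGFR3 and its chromosomal neighbour TACC3 are read by 3 probe sets on the array used here, and their levels were followed array by array. The probe sets were taken by gene symbol, which gave 2 for FGFR3 and 1 for TACC3, 3 of 54675 probe sets in all and 2 of the 19775 genes with a probe set of their own. The FGFR3 probe sets are called the brighter and the dimmer one, by their mean over all arrays, and the plots give their array identifiers. The cells were RT112, a long-established cell line from a human bladder carcinoma. Of the 4 lines, 3 were transduced with different doxycycline-inducible short hairpin RNAs against FGFR3, named 2-4, 4-1 and 6-16, and 1 with an inducible hairpin against EGFP, a jellyfish gene that human cells lack. Each line has 3 arrays labelled with doxycycline at 1 µg/ml for 48 h and 3 labelled without it, so that 8 groups of 3 arrays make up the 24 arrays. All cells were kept in medium with 1% serum, and each line carries 1 hairpin. The labels number the replicates but do not say whether they came from separate cultures, so p-values measure only the spread between these arrays, which may be technical.

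FGFR3 is a receptor tyrosine kinase that binds fibroblast growth factors and signals through adaptor proteins to the RAS-ERK cascade. It is often activated in urothelial cancers by point mutation or by fusion. TACC3 is a coiled-coil protein that works with CKAP5 and clathrin to stabilise spindle microtubules in mitosis. RT112 is known to carry an FGFR3-TACC3 fusion, which is transcribed from the FGFR3 promoter and joins the front part of FGFR3, with its kinase domain, to the back part of TACC3. The fusion transcript therefore lacks the end of the FGFR3 message and ends as TACC3 does. A probe set that lies in the shared part reads the fusion and the wild-type transcript together. The positions of the probes along the transcripts are not given in the sources used here, so the parts of the fusion and of wild-type FGFR3 or TACC3 in each value cannot be told apart.

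The promoters are shown because a fusion of this kind puts TACC3 sequence under the first of them. Both run from 250 bases before to 50 bases after the start of the gene, on the + strand, and come from RefSeq (GRCh38.p14). The FGFR3 window is chr4:1793043-1793342 and the TACC3 window chr4:1720381-1720680. Capitals mark GC boxes, the letters GGGCGG or CCGCCC on the other strand.
FGFR3: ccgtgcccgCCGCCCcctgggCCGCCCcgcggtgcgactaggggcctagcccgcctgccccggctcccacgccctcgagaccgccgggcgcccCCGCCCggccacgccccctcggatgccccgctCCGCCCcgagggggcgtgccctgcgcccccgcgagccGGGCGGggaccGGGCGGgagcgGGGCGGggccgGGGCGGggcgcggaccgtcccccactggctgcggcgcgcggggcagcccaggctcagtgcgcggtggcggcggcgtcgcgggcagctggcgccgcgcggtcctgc
TACC3: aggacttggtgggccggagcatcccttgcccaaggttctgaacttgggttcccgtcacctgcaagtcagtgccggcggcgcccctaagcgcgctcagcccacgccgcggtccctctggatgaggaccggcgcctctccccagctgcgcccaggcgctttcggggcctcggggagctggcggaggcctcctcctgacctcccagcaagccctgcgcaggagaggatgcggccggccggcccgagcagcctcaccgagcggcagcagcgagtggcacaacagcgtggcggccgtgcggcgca

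The FGFR3 window held 8 GC boxes and the TACC3 window 0. At least 1 such match was found in 45.0% of 35116 promoters of the same length, and as many as 8 in 0.812% of them. G and C made up 86.3% of the FGFR3 window and 72% of the TACC3 window, against a median of 58.7% over all promoters. Searched on both strands, a CCAAT box (the letters CCAAT) was in neither window and in 34.6% of all promoters, and a TATA box (TATAAA) in neither and in 11.5%. The same held for an E2F-like site (TTTGGCGC, in 0.652% of all promoters) and for the CHR element of many mitotic genes (TTTGAA, in 15.2%). An ETS-like site (CCGGAA) and an AP-1 site (TGACTCA) were also in neither window and in 17.2% and 4.95% of all promoters. A match describes letters only, and no match says only that these letters are not in this window. In the RefSeq gene order on chromosome 4, TACC3 lies between TMEM129 and FGFR3, and FGFR3 is followed by LETM1 and NSD2.

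The values are log2 expression levels normalised between arrays, and array medians ran from 6.98 to 7.08. The label RT112 was set against markers of epithelial and other cells. The mean level of 17 urothelial and epithelial genes ran from 11.42 to 12.02 over the arrays, with the surface protein EPCAM at 12.73 to 13.05. UPK3A, a uroplakin of the same list, was far lower at 6.96 to 7.43. Means of 11 leukocyte, 11 fibroblast and 8 endothelial genes ran from 6.65 to 6.89, from 7.61 to 7.77 and from 7.11 to 7.34, with PTPRC, the pan-leukocyte marker CD45, at 5.60 to 5.97. LUM, a fibroblast marker that codes for lumican, stood apart from its list at 12.84 to 13.56. A log2 array value has no true zero, so no marker can be said to be at 0.

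The brighter FGFR3 probe set had a narrow upper band and a lower set of arrays. Levels in the 2-4 line were 12.08, 11.34 and 12.34 with doxycycline, against 12.04, 11.85 and 11.42 without it. In the 4-1 line they were 11.28, 12.19 and 12.05 with doxycycline, against 11.83, 12.14 and 12.27 without it. The groups overlapped in both of these lines. The 6-16 line gave 12.01, 11.96 and 12.30 with doxycycline, against 11.43, 12.22 and 11.36 without it. The EGFP line gave 11.98, 11.92 and 12.14 with doxycycline, against 12.20, 12.22 and 11.13 without it. Groups overlapped here too, and the single lowest array of all 24 was an EGFP array without doxycycline.

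On the dimmer FGFR3 probe set, levels spread over a wider range. They were 10.58, 9.21 and 10.95 in the 2-4 line with doxycycline, against 10.37, 8.71 and 11.14 without it. The 4-1 line had 9.29, 10.59 and 10.49 with doxycycline, against 8.96, 9.75 and 10.80 without it. In each of these 4 groups the lowest array lay over 1 log2 unit below the highest. In the 6-16 line the levels were 10.47, 8.91 and 10.84 with doxycycline, against 11.03, 10.48 and 11.20 without it. In the EGFP line they were 10.67, 10.34 and 9.88 with doxycycline, against 9.80, 10.59 and 9.19 without it. The array with the lowest level was a 2-4 array without doxycycline, and the groups overlapped in every line.

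TACC3 followed a similar course over the arrays. In the 2-4 line its levels were 12.13, 11.43 and 12.27 with doxycycline, against 11.88, 10.49 and 12.62 without it. In the 4-1 line they were 11.35, 11.95 and 11.93 with doxycycline, against 10.79, 11.38 and 12.09 without it. The extremes in both lines were arrays without doxycycline. The 6-16 line had 11.94, 10.64 and 12.12 with doxycycline, against 12.50, 11.83 and 12.50 without it. The EGFP line had 12.09, 11.83 and 11.34 with doxycycline, against 11.43, 11.96 and 11.31 without it. Groups overlapped in every line.

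**Figure D1:**
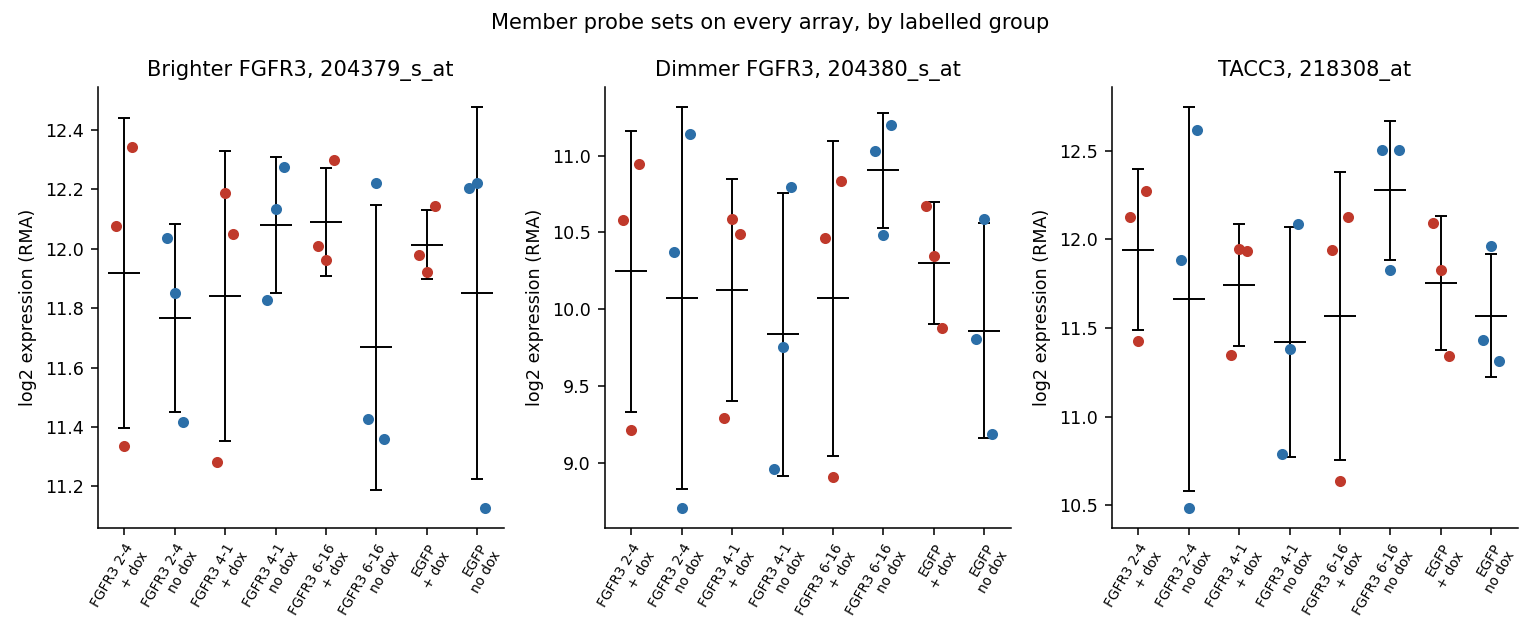
Log2 expression of the brighter and the dimmer FGFR3 probe set and of TACC3 (vertical axes) by labelled group, with 1 point per array and bars for the mean ± SD of 3 arrays. Groups with and without doxycycline overlap in every line, and the lowest arrays of the dimmer FGFR3 probe set (8.71) and TACC3 (10.49) are the same 2-4 array without doxycycline.

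All 3 probe sets varied more than most of the array. Their SDs over the 24 arrays were 0.37 for the brighter FGFR3 probe set, 0.77 for the dimmer FGFR3 probe set and 0.57 for TACC3 on the log2 scale, against 0.13 for the median probe set. Only 3.43%, 0.369% and 0.898% of probe sets had a larger SD than these. The labelled groups held little of that spread, at 15.1%, 17.5% and 19.9% of the variance, against 27.5% for the median probe set. The group means of the brighter FGFR3 probe set ran from 11.67 ± 0.48 in the 6-16 line without doxycycline to 12.09 ± 0.18 in the same line with it (SD, n = 3). On the dimmer FGFR3 probe set they ran from 9.84 ± 0.92 in the 4-1 line without doxycycline to 10.91 ± 0.37 in the 6-16 line without it. For TACC3 the lowest and highest means were in those same groups, 11.42 ± 0.65 and 12.28 ± 0.39. The SD pooled within groups was 0.41, 0.84 and 0.61 for the brighter FGFR3 probe set, the dimmer FGFR3 probe set and TACC3. On each probe set the lowest and highest group means lay further apart than this SD, and a test over the groups is given below.

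Ordered by level, the brighter FGFR3 probe set had a step of 0.40 between 11.43 and 11.83, 32.9% of its range, with 6 arrays below and 18 above. The 6 arrays below it came from 5 of the 8 groups, and 2 of them are labelled as an FGFR3 hairpin with doxycycline. On the dimmer FGFR3 probe set the largest step, of 0.46 between 9.88 and 10.34, was 18.7% of the range and left 9 arrays below it. TACC3 had its largest step, of 0.52 between 10.79 and 11.31, below 21 arrays, at 24.5% of the range. The same 9 arrays were the lowest on both the dimmer FGFR3 probe set and TACC3, and 5 of them were among the 9 lowest on the brighter FGFR3 probe set. Of those 9 arrays, 4 are labelled with doxycycline, 3 are labelled as an FGFR3 hairpin with doxycycline and 3 carry the EGFP label. These sets were noticed after the values were seen and no group was formed from them.

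The hairpin design asks whether FGFR3 is lower with doxycycline in lines whose hairpin targets it, the EGFP line serving as control. No member passed limma's test (moderated tests over all probe sets, Benjamini-Hochberg adjustment) in any line, and 0% of 54675 probe sets passed in any of the 9 comparisons made. With array weights, which count variable arrays less, 1459 of the 54675 probe sets passed in the 6-16 line. No member was among them, and at that share most sets of 3 probe sets would hold none. Changes on the brighter FGFR3 probe set, with minus without doxycycline, were on the log2 scale 0.15 for 2-4, -0.24 for 4-1, 0.42 for 6-16 and 0.16 for EGFP (SE 0.30 each). On the dimmer FGFR3 probe set they were 0.17, 0.29, -0.83 and 0.44 (SE 0.62). For TACC3 the values were 0.28, 0.32, -0.71 and 0.19, lines in the same order (SE 0.45). The lowest adjusted p among these was 0.669 in limma's test, for TACC3 in the 6-16 line, where the unadjusted p was 0.133. At an unadjusted p under 0.05, limma gave 1522 probe sets for 2-4 (2.78%), 850 for 4-1 (1.55%), 4766 for 6-16 (8.72%) and 2210 for EGFP (4.04%), and no member was among them. The signs of the 4-1 and 6-16 changes were opposite on the 2 FGFR3 probe sets.

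As a mean of the FGFR3 lines, the doxycycline difference was 0.11 on the brighter FGFR3 probe set (95% interval -0.26 to 0.48), -0.12 on the dimmer FGFR3 probe set (-0.87 to 0.62) and -0.04 for TACC3 (-0.58 to 0.51). Set against the EGFP line's own change, these became -0.05 (-0.79 to 0.68), -0.56 (-2.06 to 0.93) and -0.22 (-1.31 to 0.87). With each array's GAPDH excess, its 3' minus 5' signal for that degradation control, as a covariate, these 3 differences turned to 0.18, 0.29 and 0.37. All the intervals include 0, and those of the difference from the EGFP line also include falls of more than 1 log2 unit for the dimmer FGFR3 probe set and TACC3. Limma gave 2721 probe sets (4.98%) at an unadjusted p under 0.05 for the mean change and 2231 (4.08%) for the difference from the EGFP line. Without doxycycline, levels in the FGFR3 lines minus those in the EGFP line were -0.01 on the brighter FGFR3 probe set, 0.41 on the dimmer FGFR3 probe set and 0.22 for TACC3, none of which passed, with 2494 probe sets (4.56%) at an unadjusted p under 0.05. Limma's F-test over the 8 groups gave each member an adjusted p of 0.991 (1650 probe sets, 3.02%, at an unadjusted p under 0.05). The F-test among the 3 FGFR3 line changes gave 1.00 (1975 probe sets, 3.61%). No fall of the target gene with doxycycline passed, but these tests cannot tell an absent fall from one inside the intervals. A fall of 1 log2 unit lay outside the intervals of the mean change for all 3 probe sets. It also lay outside that of the difference from the EGFP line on the brighter FGFR3 probe set. No fall of the target gene that would bear out the labels was therefore seen. Whether the labels are right was not tested, and every group here is named by its label only. In bulk RNA, fewer cells with a transcript and less of it per cell cannot be told apart.

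**Figure D2:**
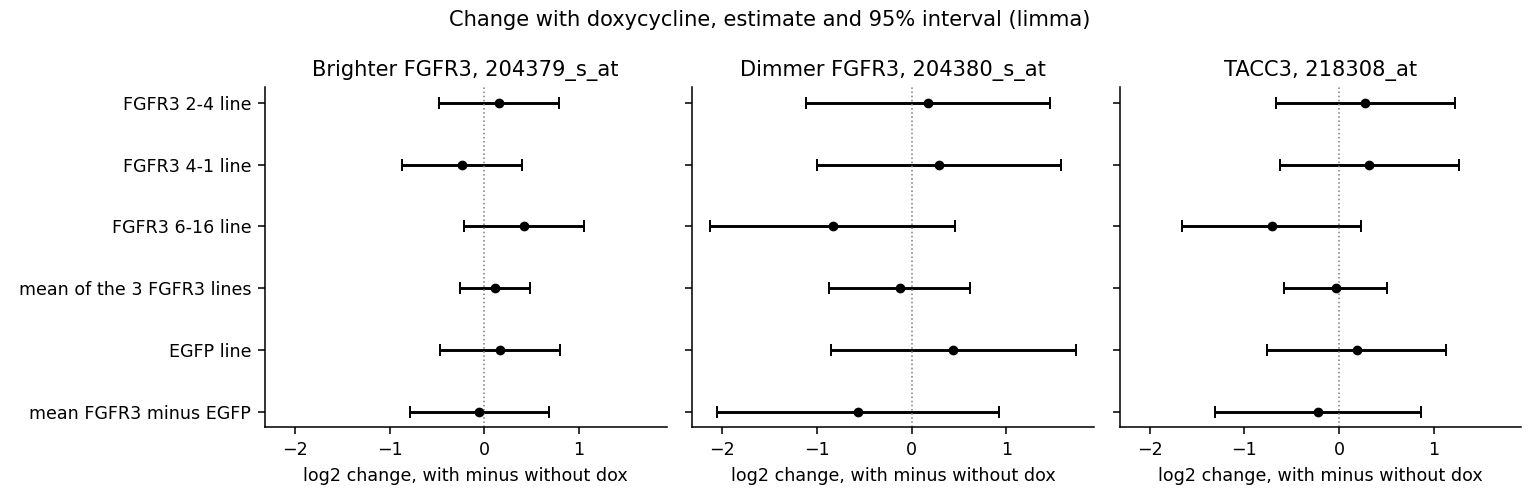
Change with doxycycline of the 3 probe sets (horizontal axes, log2, with minus without) in each line, averaged over the FGFR3 lines, and minus the EGFP line, as limma estimates with 95% intervals. Every interval includes 0, and those of the dimmer FGFR3 probe set are the widest, from -2.06 to 0.93 for the difference from the EGFP line.

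The dimmer FGFR3 probe set and TACC3 varied together from array to array. Pearson's r between the dimmer FGFR3 probe set and TACC3 was 0.965 and Spearman's rho 0.964 over the 24 arrays (permutation test of 100000 resamples, two-sided p = 1e-05, the smallest these can give, and 3e-05 adjusted over the 3 pairs). This test takes the arrays as interchangeable, while many of them lie in tight sets described below, so its p may be too small. Without the 2 arrays farthest from the median, r was 0.954, given with no test because the largest step of TACC3 was then 28.5% of its range. On deviations from the labelled group means it was 0.968, so the agreement held within groups. Within the 2-4, 4-1, 6-16 and EGFP lines r was 0.966, 0.973, 0.993 and 0.928 over 6 arrays each. The 12 arrays labelled with doxycycline gave 0.943 and the 12 without it 0.979. As TACC3 fell just short of the limit of 25% of the range that was set for separate clusters, the 21 arrays above its step were also taken alone, and r was 0.944. The values by line, by doxycycline and over 21 arrays were added after the data were seen, and as arrays of such subsets are clustered they are given with no test. Per unit of TACC3 on the log2 scale, the dimmer FGFR3 probe set moved by 1.30 units. Of 41097 probe sets with a single gene name, 7 followed the dimmer FGFR3 probe set more closely than TACC3 did.

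The brighter FGFR3 probe set had lower correlations with both. No r with them over all arrays is given, because its arrays fall into separate clusters. Over the 18 arrays above its step r was 0.669 with the dimmer FGFR3 probe set (rho 0.682) and 0.621 with TACC3 (rho 0.562). Between the dimmer FGFR3 probe set and TACC3 it was 0.993 over the same 18 arrays. These 18 arrays split again on the dimmer FGFR3 probe set, by a step of 35.3% of the range, so the values are a description with no test. Over the 6 arrays below the step r was 0.756 and 0.791, against 0.995 between the dimmer FGFR3 probe set and TACC3. These arrays too fell into sets of 3 and 3. By label, r between the 2 FGFR3 probe sets was 0.732 over the 12 arrays with doxycycline and -0.06 over the 12 without it, and within lines it ran from -0.37 to 0.727. Arrays of each of these sets are clustered as well, and the difference between labels was not tested.

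**Figure D3:**
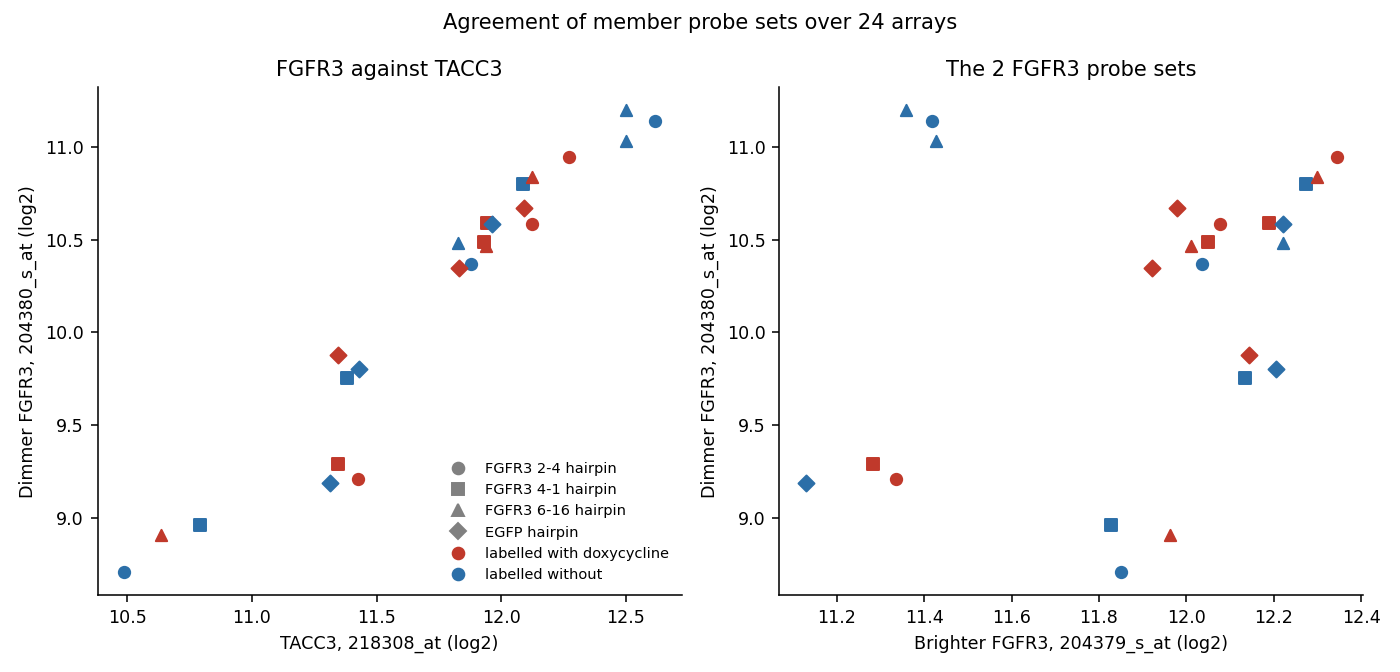
The dimmer FGFR3 probe set (vertical axes) against TACC3 (left) and against the brighter FGFR3 probe set (right), in log2 expression, with 1 point per array marked by line and doxycycline label. Most points of the left panel lie close to 1 line (r 0.965 over all arrays). Points of the right panel fall into 6 arrays at or below 11.43 on the brighter FGFR3 probe set and 18 at or above 11.83.

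Seen on both FGFR3 probe sets together, 12 arrays lay side by side at 11.92 to 12.34 on the brighter and 10.34 to 10.95 on the dimmer one, and the others lay in 4 tight sets of 3. Replicates 1 and 3 of the 6-16 line and replicate 3 of the 2-4 line, all without doxycycline, had 11.36 to 11.43 on the brighter and 11.03 to 11.20 on the dimmer probe set, which made them the highest on the dimmer one. Replicate 2 of the 2-4 line and replicate 1 of the 4-1 line with doxycycline lay at 11.13 to 11.34 and 9.19 to 9.29, together with replicate 3 of the EGFP line without it. Another set held replicate 2 of the 6-16 line with doxycycline and, without it, replicate 2 of the 2-4 line and replicate 1 of the 4-1 line, at 11.83 to 11.96 and 8.71 to 8.96. The last set held replicate 3 of the EGFP line with doxycycline and, without it, replicate 2 of the 4-1 line and replicate 1 of the EGFP line, at 12.14 to 12.20 and 9.75 to 9.88. Each of these sets mixes arrays of at least 2 labelled groups. They were noticed after the values were seen, no comparison was made between them, and their cause was not tested.

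Other genes with several probe sets give a scale for this. Among 42459 pairs of probe sets with the same gene symbol, the median r over the same 18 arrays was 0.266. Among the 1953 pairs in which both probe sets had an SD of at least 0.25, it was 0.922, and 11.6% of these pairs had a lower r than the FGFR3 pair. Over all 24 arrays, where those of the brighter FGFR3 probe set are clustered, 3.48% of the 1953 pairs had a lower r than the FGFR3 pair. The SD of the gap between the FGFR3 probe sets, also over all 24 arrays, was 0.764 on the log2 scale. Those 1953 pairs had a median of 0.178, and 2.20% of them had a larger one.

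The degradation controls of the array moved with the levels of the dimmer FGFR3 probe set and TACC3. On GAPDH, the signal at the 3' end exceeded that at the 5' end by 0.196 to 0.424 on the log2 scale. Over the 24 arrays, r with this excess was -0.86 for the dimmer FGFR3 probe set, -0.81 for TACC3 and -0.39 for the brighter FGFR3 probe set. For the same excess on ACTB it was -0.81, -0.75 and -0.36. These are descriptions with no test, and the arrays are clustered on the brighter probe set. Of the 9 arrays lowest on the dimmer FGFR3 probe set, 8 were among the 9 with the highest GAPDH excess and 7 among those with the highest ACTB excess. After the GAPDH excess was regressed out, r between the dimmer FGFR3 probe set and TACC3 was 0.895, and after the ACTB excess 0.920. Beyond these values, the part of RNA quality in the levels was not tested.

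Gaps between probe sets within an array show where the members parted. The gap of the dimmer minus the brighter FGFR3 probe set ran from -3.14, in replicate 2 of the 2-4 arrays without doxycycline, to -0.16, in replicate 3 of the 6-16 arrays without doxycycline, with a median of -1.62. Its highest value came from an array that was among the lowest on the brighter FGFR3 probe set. The gap of the dimmer FGFR3 probe set minus TACC3 was far tighter, from -2.22 to -1.29 with a median of -1.48. Its 3 lowest values were -2.22 in the 2-4 line (replicate 2, with doxycycline), -2.05 in the 4-1 line (replicate 1, with doxycycline) and -2.12 in the EGFP line (replicate 3, without it). These 3 arrays were also the lowest of all on the brighter FGFR3 probe set. The gap of the brighter FGFR3 probe set minus TACC3 ran from -1.20 to 1.36, with both ends in the 2-4 arrays without doxycycline and a median of 0.14. A gap between probe sets has no meaning as a ratio of transcripts, so only its changes are compared.

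Over the 9 arrays with and the 9 without doxycycline of the FGFR3 lines, the gap of the dimmer minus the brighter FGFR3 probe set was -1.80 ± 0.53 with doxycycline and -1.57 ± 1.11 without it (SD). The difference of -0.24 had an exact permutation p of 0.584 over 8000 relabellings within lines, two-sided. For the dimmer FGFR3 probe set minus TACC3 the values were -1.60 ± 0.33 with doxycycline and -1.51 ± 0.20 without it, a difference of -0.09 (exact p = 0.506). For the brighter FGFR3 probe set minus TACC3 they were 0.20 ± 0.44 with doxycycline and 0.05 ± 0.97 without it, a difference of 0.15 (exact p = 0.692). Adjusted over the 3 gaps, each p was 0.692, so none differed beyond the spread between arrays. In the EGFP line the differences were 0.28, 0.25 and -0.02, with exact p of 0.4, 0.4 and 1, where 3 arrays against 3 cannot go below 0.1.

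**Figure D4:**
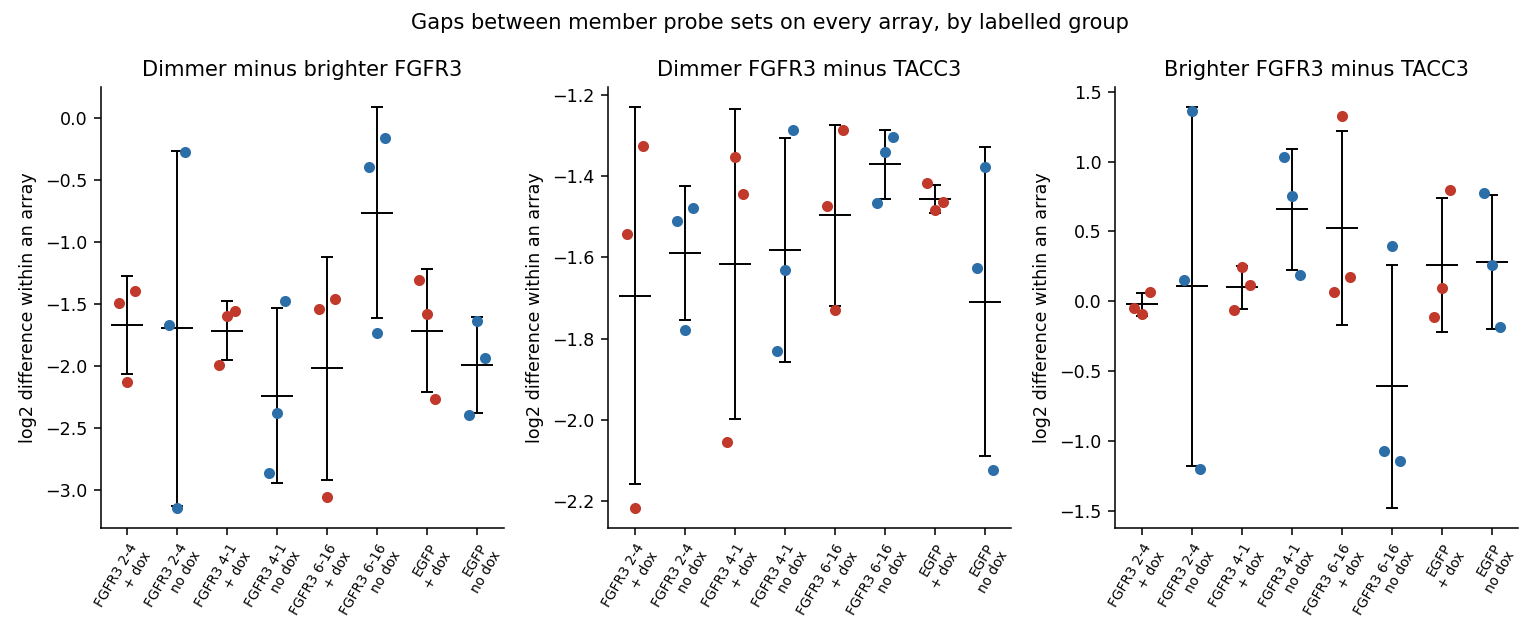
Log2 gaps between member probe sets within an array (vertical axes) on each of the 24 arrays by labelled group, with bars for the mean ± SD of 3 arrays. The gap of the dimmer FGFR3 probe set minus TACC3 stays between -2.22 and -1.29, while the gaps that involve the brighter FGFR3 probe set range over 2.98 and 2.56 log2 units.

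The genes whose levels were most like each probe set were named by Pearson's r over the 24 arrays, as a description. For the dimmer FGFR3 probe set the highest were DUSP5, a nuclear ERK phosphatase, NUP50, a nucleoporin, SHC1, an adaptor of receptor kinases, PHLDA1 and ALYREF, an mRNA export factor, each at 0.97. The lowest were the transcription factor TBX3, CYP1B1, a cytochrome P450, and FRMD4A, each at -0.97. TACC3 had S100A2, a calcium-binding protein, DUSP5, PHLDA1, SPRED2, an inhibitor of RAS-ERK signalling, and COTL1, an actin-binding protein, at 0.97. TBX3 at -0.98 and SH3YL1 and the kinase DYRK2 at -0.96 were lowest for it. DUSP5, PHLDA1 and TBX3 stood in both sets, though PHLDA1 through different probe sets.

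Other genes were most like the brighter FGFR3 probe set. C12orf75 reached 0.92, SEC63, part of the protein channel of the endoplasmic reticulum, 0.91, LINC00470 0.90, and BEGAIN and SIPA1L2 0.88 each. AOC1, which breaks down histamine, was at -0.95, LDOC1 at -0.92 and SEMA3A, a secreted guidance protein, at -0.91. Each of these 8 genes had its 6 extreme arrays on the same 6 arrays that lay below the step of the brighter FGFR3 probe set. Their r therefore follows that step at least in part. Spearman's rho was 0.86 for C12orf75, 0.56 for SEC63, 0.41 for LINC00470, 0.62 for BEGAIN and 0.73 for SIPA1L2. It was -0.80 for AOC1, -0.84 for LDOC1 and -0.85 for SEMA3A. Of all named probe sets, 2 were over 0.9 and 4 under -0.9 with the brighter FGFR3 probe set, against 243 and 298 with the dimmer FGFR3 probe set and 185 and 227 with TACC3.

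Genes of the pathway were then read from 9 lists, 127 of whose 134 genes were measured, by r to the dimmer FGFR3 probe set and to TACC3. Over all 19773 other genes, the median r was 0.034 to the dimmer FGFR3 probe set and 0.017 to TACC3, 53.1% and 51.5% lay above 0, and 0.668% were over 0.9 to the dimmer FGFR3 probe set. Of 20 genes known as ERK feedback or output, 17 had r above 0 to each, with medians of 0.842 and 0.817. DUSP5 was at 0.97, DUSP6, a cytoplasmic ERK phosphatase, at 0.96 to the dimmer FGFR3 probe set, and 5 of the 20 were over 0.9, while EPHA4 was at -0.92. With the GAPDH excess regressed out, the list's medians were 0.551 and 0.504, against -0.062 and -0.078 over all other genes.

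Receptors and adaptors had values on both sides of 0. Of 14 measured, 6 had r above 0, with medians of -0.067 to the dimmer FGFR3 probe set and -0.11 to TACC3, or -0.26 and -0.25 after the GAPDH excess. SHC1 was at 0.95 and FGFBP1, a carrier of fibroblast growth factors, at 0.92, whereas SOS1, which activates RAS, was at -0.91 and FGFR2 at -0.79 to the dimmer FGFR3 probe set. The 12 ligands had medians of 0.20 and 0.19, with 9 of them above 0 to the dimmer FGFR3 probe set and FGF19 furthest from 0 at 0.65. Their mean log2 levels ran from 4.55 to 8.65. After the GAPDH excess the ligand medians were -0.02 and -0.03.

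Among 14 spindle partners of TACC3 and mitotic genes, 11 had r above 0 to each probe set, with medians of 0.712 and 0.767. CCNB1, the mitotic cyclin, was furthest from 0 at 0.86 to the dimmer FGFR3 probe set and the kinase AURKA was at 0.82. The paralogues TACC1 and TACC2 ran the other way, both at -0.83, and clathrin heavy chain, CLTC, was at -0.30. CKAP5 was at 0.75 to the dimmer FGFR3 probe set and 0.82 to TACC3, or 0.32 and 0.54 after the GAPDH excess. After the GAPDH excess, the medians were 0.199 and 0.387, and r to the dimmer FGFR3 probe set was 0.46 for CCNB1, 0.39 for AURKA, -0.52 for TACC1, -0.64 for TACC2 and 0.024 for CLTC.

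Neighbours on chromosome 4 had r of both signs. Of 21 measured, 8 had r above 0 to the dimmer FGFR3 probe set and 7 to TACC3, with medians of -0.11 and -0.20. SLBP, which binds histone mRNA, was at 0.85, the histone methyltransferase NSD2 at 0.65, LETM1 at 0.12, TMEM129 at -0.07 and PCGF3 at -0.83 to the dimmer FGFR3 probe set. After the GAPDH excess the medians were -0.25 and -0.30, and these genes had 0.40 (SLBP), 0.012 (NSD2), 0.016 (LETM1), 0.19 (TMEM129) and -0.51 (PCGF3).

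The urothelial and epithelial list had the lowest medians, -0.72 and -0.77, although 7 of its 17 genes were above 0 to each. GATA3, a transcription factor of the urothelium, was at -0.96, the uroplakin UPK1A at -0.94, KRT13 at -0.86 and KRT5, a basal keratin, at 0.85 to the dimmer FGFR3 probe set. KRT18 was the highest of the list at 0.87. The others above 0 were KRT8 (0.58), EPCAM (0.48), PPARG (0.33), KRT7 (0.26) and the uroplakin UPK3A (0.20). After the GAPDH excess the medians were -0.20 and -0.39, and r was -0.85 for GATA3, -0.78 for UPK1A, -0.41 for KRT13 and 0.58 for KRT5. It was then 0.61 for KRT18 and -0.20 for UPK3A. Leukocyte, fibroblast and endothelial markers had medians of 0.084, 0.14 and 0.25 to the dimmer FGFR3 probe set and 0.027, 0.14 and 0.28 to TACC3. LUM, at -0.85, was the furthest from 0 among them. These medians were, after the GAPDH excess, -0.068, -0.082 and 0.050 to the dimmer FGFR3 probe set and -0.0011, -0.052 and 0.034 to TACC3. Over all other genes the medians after the GAPDH excess were -0.062 and -0.078.

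**Figure D5:**
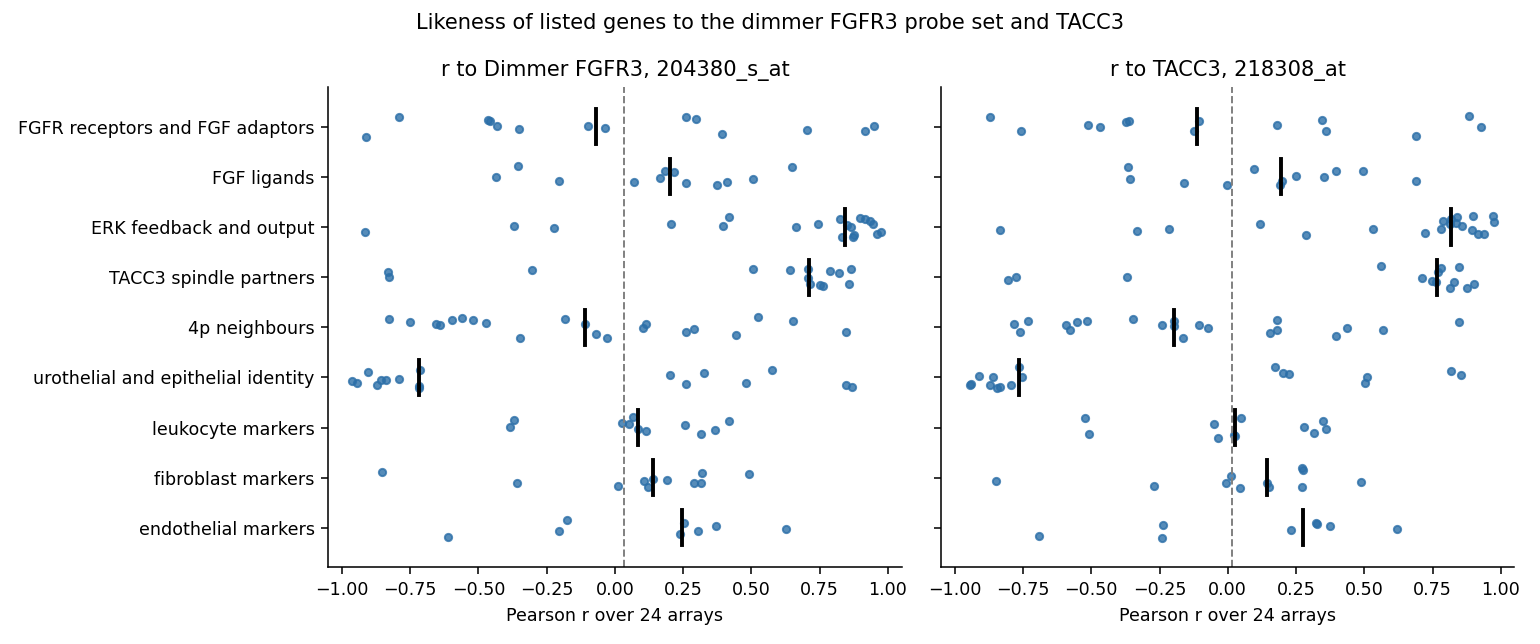
Pearson's r over 24 arrays of each listed gene (points) to the dimmer FGFR3 probe set (left) and TACC3 (right), by list, with list medians as black bars and the median of all other genes as a dashed line. ERK output genes have medians of 0.842 and 0.817, and urothelial and epithelial genes of -0.72 and -0.77, against 0.034 and 0.017 over all other genes.

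By label, 0 of the listed genes passed limma's test in the mean change of the FGFR3 lines minus the change of the EGFP line. In each list, the member with the largest absolute difference on the log2 scale was FGFBP1 at -1.10, FGF7 at -0.20, DUSP6 at -0.62, TACC1 at 0.46, UVSSA at 0.40, UPK1A at 0.88, CD79A at -0.24, ACTA2 at -0.23 and ERG at -0.23. Of all other genes, 43.8% had a difference above 0, with a median of -0.02. Above 0 were 4 of 20 ERK output genes, 2 of 12 ligands, 2 of 11 leukocyte and 3 of 11 fibroblast markers, with medians of -0.20, -0.07, -0.08 and -0.07. The other lists had 7 of 14 receptors and adaptors, 5 of 14 spindle genes, 10 of 21 neighbours, 10 of 17 urothelial and epithelial genes and 4 of 8 endothelial markers above 0.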

How the data were processed

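RNA of 24 RT112 samples was hybridised to Affymetrix 3' expression arrays. The deposited values are log2 expression of 54675 probe sets, made by the authors with RMA and the affy package per the submitters' processing notes, without versions. How probes were grouped into sets is not stated there. Quantile normalisation gives arrays nearly equal distributions, which hides a change shared by most genes. No array pair was identical and 0 sample columns went unused.

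Names came from GEO's platform annotation, checked through RefSeq (GRCh38.p14). A single symbol was given to 41097 probe sets, several to 1801 and none to 11777. For lists, the brightest probe set of each of 19775 genes was used.

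Groups follow the labels. A limma model (3.58.1, R 4.3.3) with 1 coefficient per group was fitted to all probe sets and checked on simulated data, with a threshold of 0.05. Correlations and gaps used exact or permutation tests (scipy 1.17.1). Arrays were taken as clusters where a step passed 25% of the range. Replicate numbers were checked as pairs: 9 of 12 same-number correlations were over 0.1 (-0.42 to 0.50), with every pair over 0.1 in 2 of the 4 lines. The rule that every pair be over 0.1 was not met, so the main model has no block, and whether the numbers pair the samples is not settled.

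The members, lists, tests and rules were chosen with earlier results of these data known. Named genes are the members, the 5 most and 3 least like each by r, and per list the member furthest from 0 in r to the dimmer FGFR3 probe set and the one with the largest difference between FGFR3 and EGFP lines. EPHA4, FGFR2, FGFBP1 as a likeness value, SOS1, DUSP6, AURKA, TACC1, TACC2, CLTC, CKAP5, NSD2, LETM1, TMEM129, PCGF3, UPK1A, UPK3A, KRT13, KRT5, KRT7, KRT8, KRT18, PPARG, EPCAM and PTPRC were named after their values were seen. Alternatives were a replicate block, array weights, centring, RNA quality as a covariate, single lines and arrays left out.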

Additional observations from a re-analysis of the deposited data

How the results depend on the processing

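No member passed limma's test under any setting tried. Of the 21 log2 differences of the members, 0 passed with a replicate block, under which the exact p of the 3 gaps in the FGFR3 lines were 0.469, 0.309 and 0.672 (0.672 each when adjusted), against 0.584, 0.506 and 0.692 without it. Whether the replicate numbers pair the samples is not settled: 13 of 24 arrays were most like an array with their own number, where 7 of the 21 arrays of other groups share it. Signs of small differences were unstable, and the cause was not tested. With the GAPDH excess as a covariate, the EGFP line difference turned to -0.020 on the brighter FGFR3 probe set, -0.23 on the dimmer FGFR3 probe set and -0.28 for TACC3. The mean of the FGFR3 lines then turned to 0.065 on the dimmer FGFR3 probe set and 0.096 for TACC3, that mean minus the EGFP line to 0.18, 0.29 and 0.37 on the 3 probe sets, and the difference without doxycycline to -0.029 on the dimmer FGFR3 probe set and -0.089 for TACC3. Array weights turned the mean to 0.030 on the dimmer FGFR3 probe set and 0.056 for TACC3, and the difference without doxycycline on the brighter FGFR3 probe set to 0.20, or 0.017 after median centring. In the 6-16 line, 1459 of 54675 probe sets passed with array weights, 1 with the GAPDH covariate, 1 with only that line's arrays and from 0 to 1 with 1 array left out, against 0. The dimmer FGFR3 probe set could not be tried with 1 probe set per gene, since the brighter one stands for FGFR3.

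With 1 array left out, differences on the brighter FGFR3 probe set ran from -0.061 to 0.44 in the 2-4 line (below 0 without replicate 3 of either group), from -0.41 to 0.041 in the 4-1 line (above 0 without replicate 1 with doxycycline) and from -0.20 to 0.35 in the EGFP line (below 0 without replicate 3 without doxycycline). The mean minus the EGFP line ran from -0.24 to 0.31 and the difference without doxycycline from -0.37 to 0.17, and these were above 0 without 5 and 6 of the arrays. On the dimmer FGFR3 probe set the range was -0.51 to 0.71 in the 2-4 line (below 0 without replicate 3 with or replicate 2 without doxycycline), -0.15 to 0.77 in the 4-1 line (below 0 without replicate 1 without doxycycline) and -0.35 to 0.070 for the mean, above 0 without 5 of the arrays. For TACC3 it was -0.31 to 0.76 in the 2-4 line (below 0 without replicate 2 without doxycycline) and -0.23 to 0.12 for the mean, above 0 without 8 of the arrays. The gap of the brighter FGFR3 probe set minus TACC3 ran from -0.29 to 0.22 in the EGFP line, above 0 without 3 of the arrays, and from -0.070 to 0.36 in the FGFR3 lines, and that of the dimmer minus the brighter FGFR3 probe set from -0.48 to 0.00051, where leaving out replicate 3 of the 2-4 line without doxycycline turned both signs.

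The agreement of the dimmer FGFR3 probe set and TACC3 ran from 0.959 to 0.975 with 1 array left out. Over the 18 arrays, the brighter FGFR3 probe set gave 0.587 to 0.729 with the dimmer FGFR3 probe set and 0.523 to 0.684 with TACC3, and on deviations from group means 0.416 and 0.292. After the GAPDH excess, the list medians of r to the dimmer FGFR3 probe set turned to -0.017 for ligands, -0.068 for leukocyte and -0.082 for fibroblast markers, and those to TACC3 to -0.032, -0.0011 and -0.052. The medians over all other genes turned too, to -0.062 and -0.078. Values of r to the dimmer FGFR3 probe set were then 0.91 for DUSP5, 0.79 for SHC1, -0.85 for GATA3 and -0.49 for LUM. With 1 array left out, medians to the dimmer FGFR3 probe set ran from -0.12 to 0.0061 for receptors and adaptors (above 0 without replicate 3 of 6-16 without doxycycline) and from -0.20 to 0.022 for chromosome 4 neighbours (above 0 without replicate 2 of 6-16 with doxycycline), and those of leukocyte markers to TACC3 from -0.035 to 0.12. All settings for r to other genes were chosen after seeing the data.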
